A study of Mus musculus with 6 samples.

Results

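The 8 genes described here encode the machinery that releases SREBP (sterol regulatory element-binding protein) from the endoplasmic reticulum (ER), together with a receptor for oxidised sterols. They are Srebf1, Srebf2, Scap, Insig1, Insig2, Mbtps1, Mbtps2 and Nr1h2, and they were listed by gene symbol for their role in this pathway, with earlier results of these data known. They are 8 of 16490 genes read on the arrays and took 12 of the 42126 probes tested. All 12 probes were well above background on all 6 arrays. Srebf1, Scap, Insig1 and Nr1h2 had 1 probe each, and the other 4 genes had 2.

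RNA came from neuro2a (N2a) cells, a mouse neuroblastoma line, and was hybridised in a single colour to Agilent mouse arrays. The Vector group (n = 3) received a control plasmid, taken from the sample titles to be the one with no RNAi sequence. The paper names both an empty plasmid and a non-targeting RNAi plasmid as controls. The YAYC group (n = 3) received the plasmid with microRNA-type RNAi against NF-YA and NF-YC, subunits of the CCAAT-binding factor NF-Y. Both groups were transfected with a lipid reagent and carried the EmGFP marker of the plasmid. No sorting of transfected N2a cells is described, so an array averages over transfected and untransfected cells, and fewer responding cells cannot be told apart from a smaller change per cell. No label says whether replicates were separate cultures, so p-values measure the spread between these samples, which may be technical. In the YAYC group Nfya was lower by a log2 change of -0.76 (SE 0.055, limma adjusted p = 0.0013) and Nfyc by -1.81 (SE 0.045, adjusted p = 0.000323).

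SREBPs are made as membrane-bound precursors. SREBP-1, from Srebf1, drives mainly fatty acid genes, and SREBP-2, from Srebf2, drives mainly sterol synthesis and uptake genes. Scap, an escort protein that senses cholesterol, carries the precursor in COPII vesicles to the Golgi, where the site-1 and site-2 proteases (Mbtps1 and Mbtps2) cut the active factor free, while Insig1 and Insig2 hold Scap back in the ER when sterols are plentiful. Nr1h2 encodes LXR beta, a nuclear receptor that senses oxysterols and can induce Srebf1. In nerve cells this pathway supplies cholesterol and lipids for membranes.

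Because NF-Y binds CCAAT, the promoters of the 8 genes were read for that motif first. RefSeq (build GRCm38.p6) gave 13 promoter windows for 8 of 8 genes, each 250 bases before a transcript start and 50 bases from it on. CCAAT, on either strand, stood in 5 of the 13 windows (38.5%), against 37.4% of all 32851 windows in the table. By gene, 4 of 8 (50%) held it in at least 1 window, against 41.1% of 27025 genes. Srebf1, Srebf2, Insig1 and Insig2 held it, and Scap, Mbtps1, Mbtps2 and Nr1h2 did not. TCACNCCAC, the core of a sterol regulatory element, was in 0 of 13 windows, against 1.24% of all. A match is a description of letters and not a bound site, and its absence says only that these letters are not in these windows.

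The stretches before the start are shown for the genes with a match and for Scap, the member with the lowest change. They run 5′ to 3′ on the strand of the gene, and capitals mark CCAAT or its reverse complement ATTGG. The Srebf1 window shown is the one whose match lies nearest its start, at -30 to -26, where -1 is the last base before the start. In Srebf2 the match lies at -135 to -131 and in Insig1 at -216 to -212, each on the other strand. The Insig2 window holds 3 matches, at -136 to -132, -46 to -42 and -29 to -25, and 11.7% of all windows hold 2 or more. Its other 2 windows hold none. Srebf1 has another match, at -166 to -162 in its first window, and none in its second window.
Srebf1 (chr11:60210472-60210721, minus strand): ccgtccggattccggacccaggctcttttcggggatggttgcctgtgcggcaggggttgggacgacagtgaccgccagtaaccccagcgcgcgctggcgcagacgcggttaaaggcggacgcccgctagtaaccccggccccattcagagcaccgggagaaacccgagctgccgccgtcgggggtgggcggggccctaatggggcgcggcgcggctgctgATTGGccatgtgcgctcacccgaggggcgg
Srebf2 (chr15:82147019-82147268, plus strand): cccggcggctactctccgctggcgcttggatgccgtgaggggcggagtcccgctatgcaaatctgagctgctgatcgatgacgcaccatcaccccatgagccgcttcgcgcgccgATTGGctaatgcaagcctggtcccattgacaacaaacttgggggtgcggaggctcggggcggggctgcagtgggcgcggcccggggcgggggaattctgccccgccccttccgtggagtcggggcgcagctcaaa
Scap (chr9:110333038-110333287, plus strand): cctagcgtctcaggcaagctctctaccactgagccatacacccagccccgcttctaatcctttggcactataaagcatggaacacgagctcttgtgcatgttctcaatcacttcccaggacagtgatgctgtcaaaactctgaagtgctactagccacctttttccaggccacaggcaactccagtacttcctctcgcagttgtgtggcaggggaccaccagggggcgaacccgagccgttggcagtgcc
Insig1 (chr5:28071162-28071411, plus strand): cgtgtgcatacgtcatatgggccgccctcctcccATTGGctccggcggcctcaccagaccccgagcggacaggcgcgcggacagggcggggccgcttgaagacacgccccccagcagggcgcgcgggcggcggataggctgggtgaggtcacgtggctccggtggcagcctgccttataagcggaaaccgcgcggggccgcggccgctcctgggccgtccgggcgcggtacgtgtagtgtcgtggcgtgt
Insig2 (chr1:121332590-121332839, minus strand): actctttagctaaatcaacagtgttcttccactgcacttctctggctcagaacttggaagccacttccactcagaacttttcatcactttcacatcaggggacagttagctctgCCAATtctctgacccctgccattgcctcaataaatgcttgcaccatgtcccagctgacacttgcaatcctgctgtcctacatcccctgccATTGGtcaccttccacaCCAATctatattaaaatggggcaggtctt

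**Figure D1:**
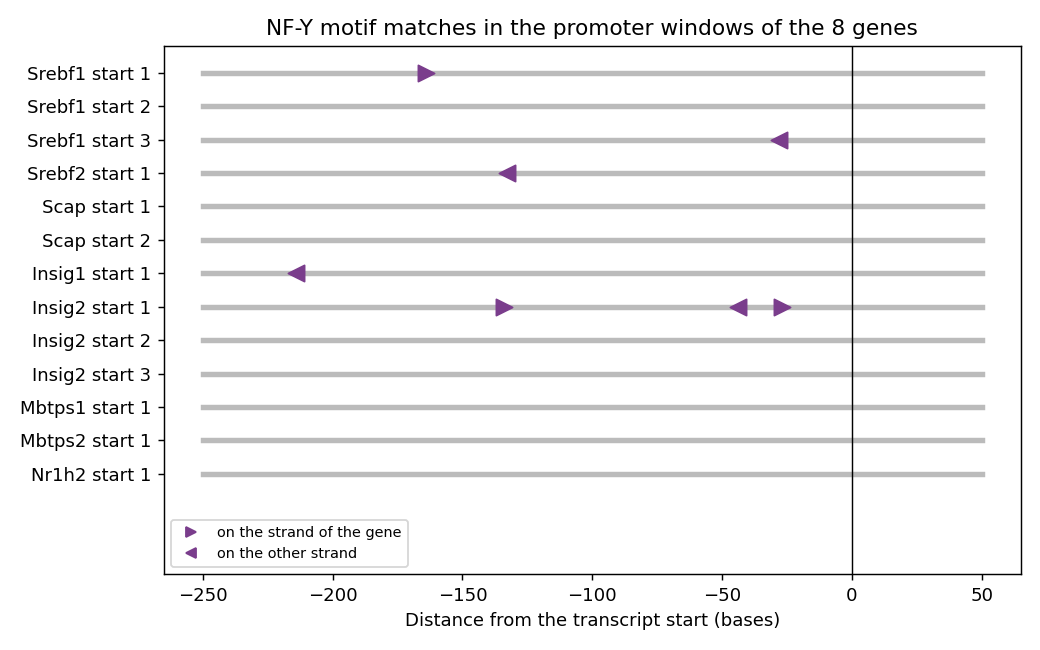
CCAAT matches (triangles, pointing right on the strand of the gene and left on the other strand) in the 13 promoter windows of the 8 genes, by distance in bases from the transcript start (x axis), with 1 row for each window. Matches stand in 5 windows, and the rows of Scap, Mbtps1, Mbtps2 and Nr1h2 are empty.

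Across the 8 genes the YAYC arrays read lower rather than higher. With an adjusted p below 0.05 and no minimum fold, 4 of 8 genes fell (Scap, Srebf1, Srebf2 and Insig2) and 0 rose, where 15.8% of all genes fell and 15.7% rose. Since the 8 genes were chosen with earlier results known, these shares describe them and do not test them as a group. With a fold above 1.5 also required, the rule used here for a called gene, 2 of 8 were lower (Scap and Srebf1) and 0 higher, against 5.0% and 3.91% of all genes. In 7 of 8 genes, each read from its brightest probe, every YAYC array lay below every Vector array. In 0 every YAYC array lay above, and 27.1% and 27.7% of all genes did so. Of all 12 probes, 9 were lower in this way and 1, the other Mbtps1 probe, was higher. The median log2 change was -0.24 over the 8 genes and 0.0053 over all genes. All values below are normalized signals, the log2 of the processed intensity minus the 75th percentile of the array, and a change is the YAYC mean minus the Vector mean on that log2 scale.

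**Figure D2:**
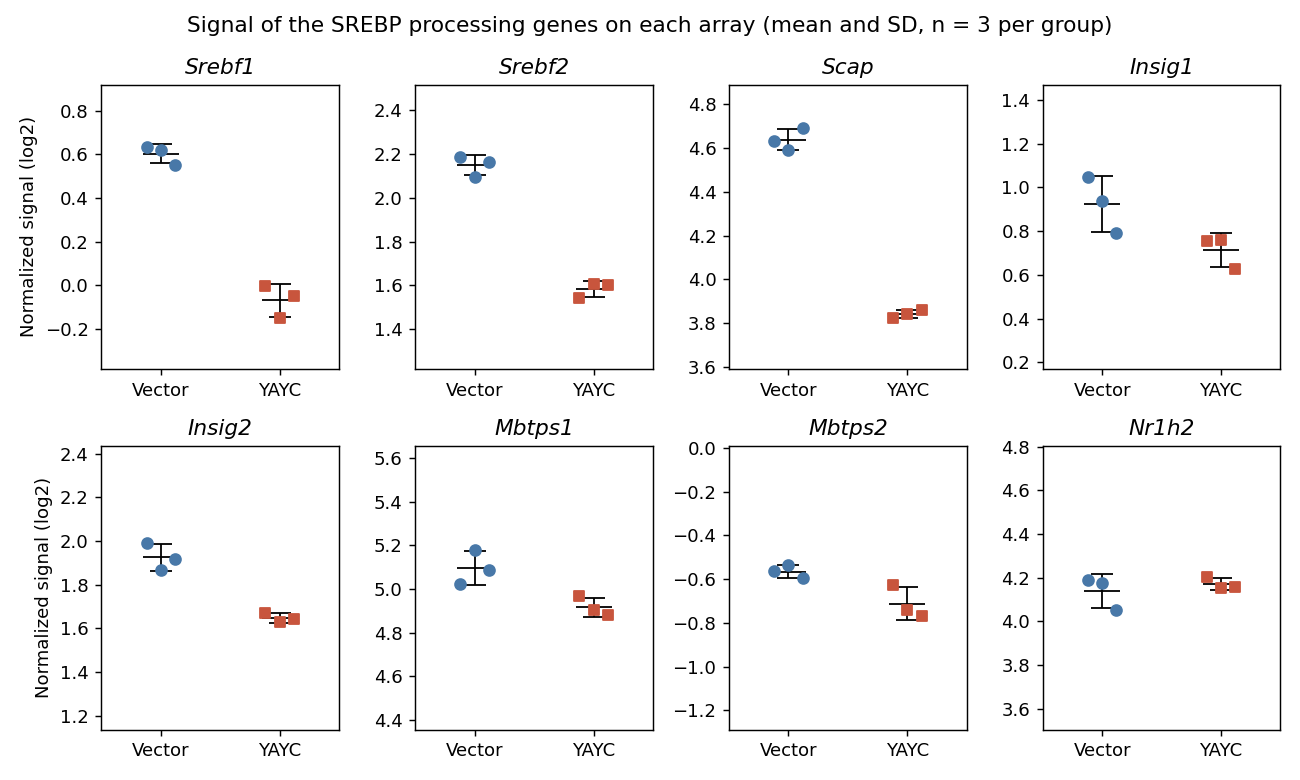
Normalized signal (y axis, log2 relative to the 75th percentile of the array) of the 8 genes on each of the 3 Vector and 3 YAYC arrays (points), with the group mean and SD as bars, from the probe each gene is read from. The groups are separate in 7 genes and overlap in Nr1h2.

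Srebf1, which encodes SREBP-1, fell to 62.8% of its Vector level. Its probe, A_55_P2002557, read 0.635, 0.621 and 0.553 on Vector arrays 1 to 3, and -0.0034, -0.151 and -0.049 on YAYC arrays 1 to 3. The lowest Vector array lay well above the highest YAYC array. The change was -0.67 (SE 0.057, 95% confidence interval -0.82 to -0.52, adjusted p = 0.00192), a 1.59-fold decrease that 5.42% of genes exceeded with a lower change. Srebf1 remained called under all 20 alternative settings, with changes from -0.79 to -0.59.

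Srebf2, which encodes SREBP-2, also fell, by a fold that sat at the 1.5 threshold. Its main probe, A_51_P377508, read 2.188, 2.097 and 2.166 on the Vector arrays and 1.541, 1.607 and 1.602 on the YAYC arrays. The 3 YAYC arrays lay close together below all Vector arrays. The change was -0.57 (SE 0.048, 95% confidence interval -0.69 to -0.45, adjusted p = 0.00184), or 1.48-fold. The other probe, A_55_P2000487, read -0.071, -0.112 and 0.122 on the Vector arrays and -0.530, -0.608 and -0.462 on the YAYC arrays. It gave a change of -0.51 (SE 0.082, adjusted p = 0.0116), so both probes of Srebf2 fell. With the main probe, A_51_P377508, the decrease passed the test in all 20 settings and exceeded 1.5-fold in 3 of them. These were the array median as the scale (-0.68), the row of the slide as a block (-0.61, from YAYC replicate 1 alone) and the fit without Vector replicate 2 (-0.59).

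Scap, the escort, had the lowest change of the 8 genes. Probe A_52_P485971 read 4.63, 4.59 and 4.69 on the Vector arrays and 3.82, 3.84 and 3.86 on the YAYC arrays. Each group spanned a narrow range, and the gap between the groups was many times the spread within either. The change was -0.80 (SE 0.045, 95% confidence interval -0.91 to -0.68, adjusted p = 0.000705), which left 57.5% of the Vector level. A lower change was measured in 3.87% of all genes. Scap was called in all 20 settings, from -0.92 to -0.75.

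Of the Insig retention proteins, Insig2 fell by a small amount and Insig1 did not pass the test. Insig1 probe A_51_P290207 read 1.046, 0.936 and 0.792 on the Vector arrays and 0.756, 0.761 and 0.626 on the YAYC arrays. The lowest Vector array lay just above the highest YAYC array. The change was -0.21 (SE 0.084, 95% confidence interval -0.42 to 0.0016, adjusted p = 0.140). Insig1 is itself a target of SREBP, and 21 of the 24 sterol genes listed as targets of SREBP-2 had a lower change than it. With a variance trend and robust estimation Insig1 passed (adjusted p = 0.0268).

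Insig2 probe A_51_P439452 read 1.99, 1.87 and 1.92 on the Vector arrays and 1.67, 1.63 and 1.64 on the YAYC arrays. The groups did not overlap. The change was -0.28 (SE 0.049, 95% confidence interval -0.40 to -0.15, adjusted p = 0.0158). The other probe, A_55_P1957624, read -0.081, -0.125 and 0.071 against -0.419, -0.331 and -0.255, with a change of -0.29 (SE 0.076, adjusted p = 0.0507). Both probes thus read lower on every YAYC array, while only the first passed. The second passed in some alternative settings, such as quantile normalization (adjusted p = 0.0476), and not in others, such as spike-in scaling (adjusted p = 0.223). Insig2 stopped passing in 5 of 20 settings, among them spike-in scaling (adjusted p = 0.0702) and the fits without YAYC replicate 2 (0.0596) or YAYC replicate 3 (0.0619).

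Neither protease gene passed the test. Site-1 protease gene Mbtps1 read 5.02, 5.18 and 5.09 on the Vector arrays and 4.97, 4.90 and 4.88 on the YAYC arrays with probe A_55_P2047325. That change was -0.18 (SE 0.059, 95% confidence interval -0.33 to -0.030, adjusted p = 0.0907). The other Mbtps1 probe, A_52_P406482, ran the opposite way, with -1.66, -1.82 and -1.76 on the Vector arrays and -1.47, -1.58 and -1.51 on the YAYC arrays. Every YAYC array was higher there, with a change of 0.22 (SE 0.063, adjusted p = 0.0597). No direction can be given for Mbtps1, whose mean over both probes changed by 0.023. With a variance trend both probes passed in opposite directions, the main probe at -0.18 (adjusted p = 0.00676) and the other at 0.22 (adjusted p = 0.0339). The other probe also passed, as higher, with both normexp background corrections (adjusted p = 0.0153 and 0.00786). It passed too with the filter on probes well above background (adjusted p = 0.0376).

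Mbtps2, the site-2 protease gene, read -0.562, -0.537 and -0.597 on the Vector arrays and -0.627, -0.743 and -0.769 on the YAYC arrays with probe A_55_P2185910. The groups were separate but close. The change was -0.15 (SE 0.055, 95% confidence interval -0.29 to -0.0077, adjusted p = 0.123). The other probe, A_52_P530405, changed by -0.29 (SE 0.108, adjusted p = 0.121), and its groups overlapped.

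Nr1h2, the oxysterol receptor, showed no change that the arrays could resolve. Probe A_55_P1978481 read 4.19, 4.18 and 4.05 on the Vector arrays and 4.20, 4.15 and 4.16 on the YAYC arrays. The groups overlapped, and the change was 0.031 (SE 0.055, 95% confidence interval -0.11 to 0.17, adjusted p = 0.731). Of the 8 genes it is the one with overlapping groups.

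**Figure D3:**
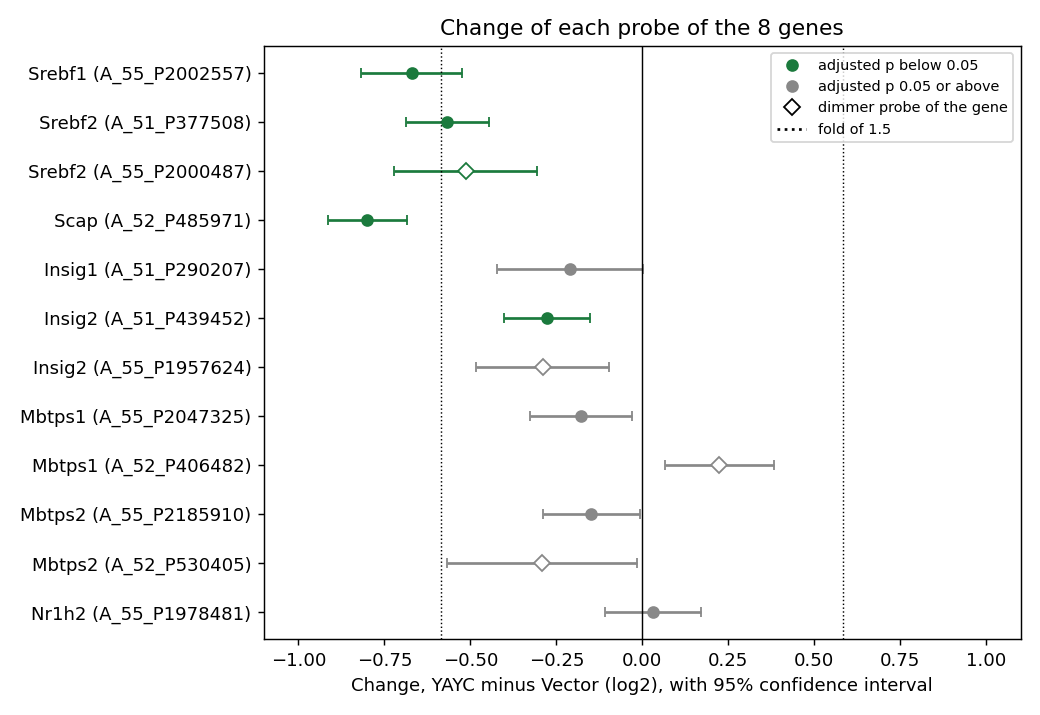
Change of each of the 12 probes (x axis, YAYC minus Vector, log2) with its 95% confidence interval (bar), green where it passed the test, with open symbols for the other probe of a gene and dotted lines at a fold of 1.5. The probes of Srebf1, Srebf2 and Scap lie lowest, and the Mbtps1 probes lie on opposite sides of 0.

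Differences between members were tested on the per-array difference of their signals, for 4 pairs, with an exact two-sided permutation test over the 20 assignments of arrays, which cannot give a p below 0.1. Insig1 and Scap differed most: their changes were 0.59 apart, a 1.504-fold shift in the ratio of Insig1 to Scap signal (exact p = 0.1, the smallest possible, adjusted p = 0.4). Srebf1 and Srebf2 changed within 0.10 of each other (exact p = 0.3, adjusted p = 0.5), Insig1 and Insig2 within 0.067 (exact p = 0.5, adjusted p = 0.5), and Mbtps1 and Mbtps2 within 0.031 (exact p = 0.5, adjusted p = 0.5). No difference between members thus passed, in a design that could not pass. The gap of -0.40 between the main and the other Mbtps1 probe also reached the smallest p (exact p = 0.1, adjusted p = 0.4 over the 4 genes with a second probe), a test added after the values were seen.

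Around the machinery, the targets of both SREBPs read lower. The gene lists used here were written from general knowledge with earlier results of these data known, so their direction is not independent evidence. Over all genes, 15.8% fell, 15.7% rose and 5.0% were called lower. Of 24 sterol synthesis and uptake genes of SREBP-2, 21 fell and 0 rose, with a median change of -0.71, and 17 were called lower. The lowest were the sterol reductase gene Tm7sf2 (-1.88), the isomerase gene Ebp (-1.74), Acat2 (-1.60), which joins acetyl-CoA units, and Nsdhl (-1.24), a demethylating dehydrogenase. Of 18 fatty acid genes of SREBP-1, 15 fell and 0 rose, with a median of -0.54 and 7 called lower. They were led by the desaturase genes Scd1 (-2.94) and Fads2 (-1.61), the phosphatidate phosphatase gene Lpin1 (-2.82) and the lipase gene Pnpla3 (-1.77). Among the sterol genes, 11 of 24 had a lower change than Scap and 17 of 24 a lower change than Srebf2.

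Most genes for proteins involved in the turnover and control of Insig, Scap and SREBP did not pass the test. Of 19 such genes, 2 fell, 4 rose and 13 did not pass, near the 15.8% and 15.7% of all genes that fell and rose, and the median change was 0.0088. Erlin2, an ER membrane protein of the sterol-regulated degradation pathway, had the lowest change of any machinery or control gene here (-1.99, SE 0.054), with Vector arrays at 1.5, 1.5 and 1.6 and YAYC arrays at -0.426, -0.523 and -0.438. Its YAYC arrays lay far below the Vector arrays, at 25.1% of their level. Rnf145, a ubiquitin ligase, fell by less (-0.29). Fbxw7, the F-box protein that marks nuclear SREBP for destruction, rose by 0.65 (SE 0.054). Tmub1 (0.44), Faf2 (0.23) and the ubiquitin ligase Rnf139 (0.23) also rose, without reaching 1.5-fold. Faf2 changed by -0.14 when its probes were averaged. Rnf139 (adjusted p = 0.0334) did not pass in any fit that left out 1 array (adjusted p 0.0666 to 0.109).

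Of 11 genes of the COPII vesicle coat, 9 did not pass and 2 fell, a share near the 15.8% of all genes, the coat GTPase gene Sar1a (-0.57) and the cargo adaptor gene Sec24a (-0.28). None rose, and the median was -0.036. Sar1a changed by -0.26 when its probes were averaged. Sec24a passed narrowly (adjusted p = 0.0476) and did not pass in any fit that left out 1 array (adjusted p 0.0793 to 0.128). Of 8 other substrates of the site-1 and site-2 proteases, 4 fell and 1 rose, where 15.8% and 15.7% of all genes did, with a median of -0.23. Creb3, an ER-anchored transcription factor, was called lower (-0.59, 1.504-fold), and its fold dropped under the threshold with quantile normalization (-0.57), with spike-in scaling (-0.56) and without Vector replicate 2, YAYC replicate 1 or YAYC replicate 2, where the smallest change was -0.55. Atf6, which activates ER chaperone genes, fell (-0.43), as did its relatives Creb3l1 (-0.35) and Creb3l3 (-0.29). Atf6b rose (0.33).

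Sterol handling outside the pathway was also read. Of 8 tested genes of oxysterol synthesis, sterol esterification and sterol transfer, 5 fell and 0 rose, where 15.8% and 15.7% of all genes did. Their median was -0.33, and 3 of the 11 listed were not tested. The oxysterol-binding protein gene Osbp (-0.78) and the cholesterol acyltransferase gene Soat1 (-0.60) were called lower, and the sterol transfer genes Gramd1b (-0.48), Gramd1a (-0.35) and Npc2 (-0.32) fell by less. Soat1 was called in 12 of 20 settings. Soat1 changed by -0.37 and -0.32 under the normexp settings and by -0.50 with the slide row as a block, which rests on YAYC replicate 1 alone. It also lost its call without Vector replicate 2 (-0.61, adjusted p = 0.0542), Vector replicate 3 (-0.56) or YAYC replicate 2 (-0.50). Of 11 LXR partners and targets, 8 did not pass, and the numbers that fell and rose were near the shares of all genes given above. The 2 that fell were the lysophospholipid acyltransferase gene Lpcat3 (-0.90) and Mylip (-0.34), which degrades the LDL receptor, and 1 rose. That was the sterol exporter Abcg1, not well above background on any Vector array and at least 2.08-fold higher in YAYC cells on the processed signal. With normexp background correction its change was 0.26 or 0.30 and was not called, so the size of its increase depends on the background correction. Abca1, another exporter, read -4.63, -4.65 and -4.49 on the Vector arrays and -3.33, -1.76 and -3.70 on the YAYC arrays. Every YAYC array was higher, but they lay far apart, and the change of 1.66 (SE 0.52) did not pass (adjusted p = 0.0820). Abca1 was called in 2 of 20 settings, among them the fit without YAYC replicate 2, the highest array (1.08, adjusted p = 0.018).

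Of 8 transcription partners of SREBP, 1 fell, Sp1 (-0.29), a share near the 15.8% of all genes. In the same list 3 rose, where 15.7% of all genes did, the acetyltransferase genes Crebbp (0.33) and Ep300 (0.39) and the coactivator gene Ncoa1 (0.34). None of the 8 was called, where 5.0% of all genes were called lower and 3.91% higher.

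**Figure D4:**
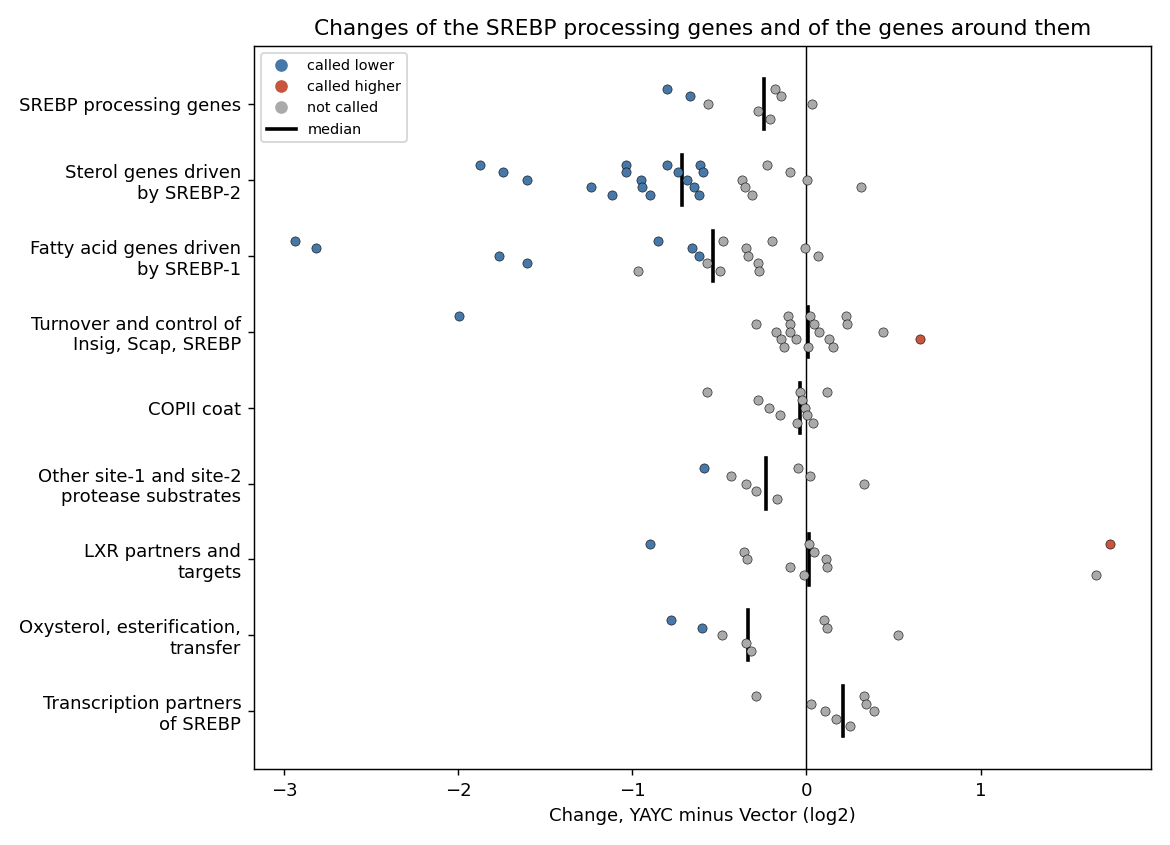
Change of each tested gene (points; x axis, YAYC minus Vector, log2) in the 8 gene lists and the 8 members, with the median of each as a line and called genes in colour. The SREBP-2 and SREBP-1 target lists lie lowest, with medians of -0.71 and -0.54, and the genes for control proteins lie on both sides of 0.

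Likeness of profile was measured as the root mean square difference over the 6 arrays from the profile of a called member, over 13977 genes well above background on all 6. The profiles most like Scap were Eif5a2 (0.0097), Limd1 (0.030) and Il11ra1 (0.031, log2 units). Those most like Srebf1 were Eif3i (0.029), Ppp2ca (0.029) and Enpp1 (0.032). With 2 groups of 3 arrays, such a measure mainly finds genes with a similar change.

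Of 17 neuronal and neuroblastoma markers, 16 were well above background on all 6 arrays and Nefl on none. Their summed processed signal ran from 353351 to 371443 on the Vector arrays and from 316804 to 342481 on the YAYC arrays. The summed signals of fibroblast markers were 165 to 193 and 179 to 210, of astrocyte markers 137 to 158 and 113 to 123, of microglia and blood markers 34.5 to 49.3 and 28.1 to 78.5, and of endothelial markers 10302 to 11480 and 8760 to 9452. Markers above background on all 6 arrays numbered 4 of 5, 2 of 4, 1 of 3 and 2 of 3 in the same order, and Pdgfrb, Slc1a3 and Cdh5 were above it on none. The neuronal, astrocyte and endothelial sums were lower on every YAYC array, and their part in the changes above was not tested. The share of spots well above background was 61.9% to 66.2% an array, the 75th percentile 718 to 754 intensity units, and 0 spots were saturated. All arrays were on 1 slide, with YAYC replicates 2 and 3 in its second row. No Vector array was in that row, so a fit with the row as a block rests on YAYC replicate 1 alone against the Vector arrays. Its changes were -0.82 for Scap, -0.61 for Srebf1 and -0.61 for Srebf2. For YAYC replicates 2 and 3 the row cannot be separated from the knockdown.

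**Figure D5:**
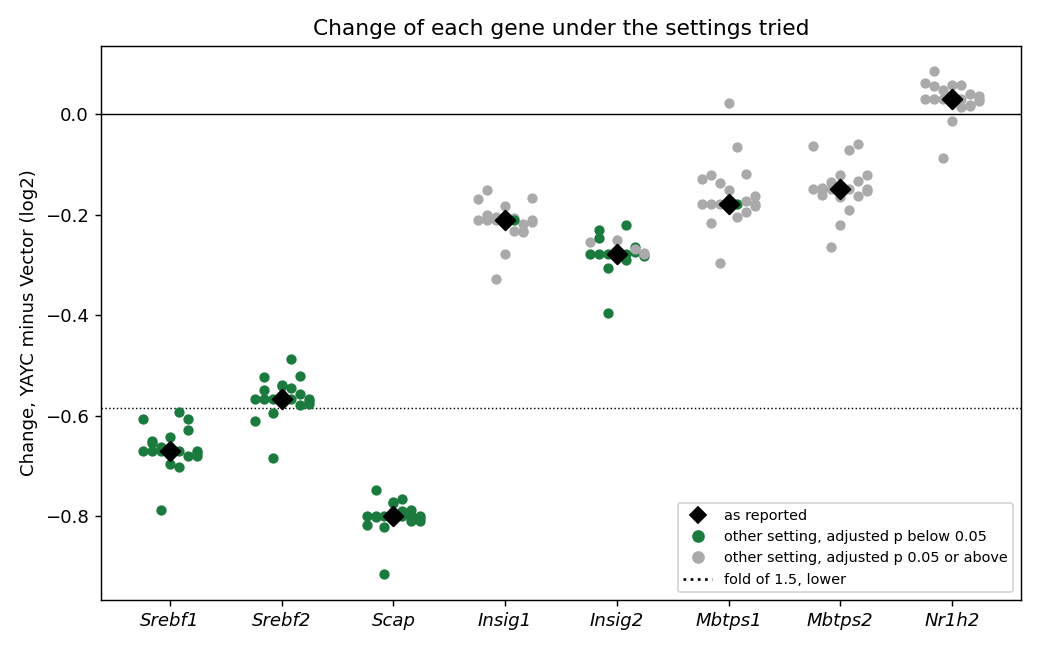
Change of each of the 8 genes (y axis, YAYC minus Vector, log2) under the 20 alternative settings (points, green where it passed the test) and as reported (black diamonds), with a dotted line at a fold of 1.5. Srebf1, Srebf2 and Scap stay below 0 throughout, while Mbtps1 and Nr1h2 reach both sides of 0.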

How the data were processed

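Cells of both groups were profiled on 6 single-colour arrays. The submitters' processing notes name Agilent Feature Extraction 10.10.1.1. In the scanner files the authors deposited, the processed signal of a spot is an intensity that this software had corrected for background. The deposited series matrix holds log2 values of unstated scale and centring. Over 43557 probes with 1 spot, its differences between arrays matched those of the scanner values to within 0.0076, and its column medians ran from -0.012 to 0.018. It served as an alternative.

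Control spots and outlier-flagged spots were dropped. The log2 processed signal was taken relative to the 75th percentile of its array, and replicate spots were averaged. In all 245 of 55681 probes had no usable spot on some array. A probe was tested when it reached the 20th percentile on all 3 arrays of at least 1 group. Symbols came from RefSeq (GRCm38.p6), which named 25869 of the 26392 probes designed to a curated mRNA. The probe of highest mean signal stood for a gene. Groups and replicate numbers came from sample titles.

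YAYC was compared with Vector with lmFit and eBayes of limma 3.58.1 (R 4.3.3), two-sided and with no covariate, and Benjamini-Hochberg adjustment over all tested probes. A gene "fell" or "rose" at an adjusted p below 0.05, and was called when its fold also exceeded 1.5. For a probe above background in 1 group alone, the bright mean was set against the higher, per array, of the dim probe and the lowest signal well above background. The genes named are the 8 members, Nfya and Nfyc, up to 4 called genes of the largest change per list, genes that a count of 5 or fewer turns on, and the 3 closest profiles to each called member. Members and lists were chosen with earlier results of these data known. Alternatives were other scalings, filters, background corrections and probe summaries, the series matrix, a variance trend, array weights, blocks for replicate number and slide row, no minimum fold, and leaving out each array. Normexp (offset 50) used the median spot signal in place of the mean signal planned for it.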

Additional observations from a re-analysis of the deposited data

How the results depend on the processing

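The changes of Srebf1, Srebf2 and Scap kept their direction and passed the test in all 20 settings, and Mbtps2 passed in none. Among these settings, the slide row as a block rests on YAYC replicate 1 alone. With a variance trend Insig1 (-0.21, adjusted p = 0.0268) and the main probe of Mbtps1 (-0.18, adjusted p = 0.00676) passed. In the other settings, leaving aside the slide row, adjusted p values were 0.0508 to 0.309 for Insig1 and 0.0606 to 0.763 for Mbtps1. The other Mbtps1 probe, which ran the opposite way, passed with a variance trend (0.22, adjusted p = 0.0339). That probe also passed with both normexp settings and with the filter on probes well above background. Insig2 no longer passed with spike-in scaling (-0.25) and the replicate block (-0.28, adjusted p = 0.0535), and leaving out 1 array gave -0.31 to -0.25. With the slide row as a block Insig2 changed by -0.25. Nr1h2 changed sign with the array median as the scale (-0.086) and when 1 array was left out (-0.013 to 0.056, below 0 without Vector replicate 3), and Mbtps1 when probes were averaged (0.023). The difference between Mbtps1 and Mbtps2 changed sign with quantile normalization (0.041), normexp and quantile normalization (0.0059) and averaged probes (0.24), and Faf2 with averaged probes (-0.14). The causes were not tested.

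With no minimum fold, by construction, the members called lower became 4, the SREBP-1 genes 15, turnover genes 2 lower and 4 higher, COPII genes 2, other protease substrates 4 lower and 1 higher, LXR genes 2 lower, oxysterol and sterol transfer genes 5, and transcription partners 1 lower and 3 higher. Turnover genes called higher became 0 with the array median and with averaged probes, where Fbxw7 changed by 0.54 and 0.57. COPII genes called lower became 1 with the array median. Other protease substrates became 0 with quantile normalization and 0 with spike-in scaling, and LXR genes called higher 0 with normexp and quantile normalization, where Abcg1 changed by 0.26. Oxysterol and sterol transfer genes called lower became 1 with spike-in scaling, both normexp settings, averaged probes (Osbp, -0.52) and the replicate block. Leaving out 1 array gave 2 to 3 members called lower, 0 to 1 COPII genes, 0 to 1 other protease substrates, 1 to 2 LXR genes higher and 1 to 2 oxysterol and sterol transfer genes lower (without Vector replicate 2 or 3 or YAYC replicate 2, Soat1 was lost).

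Replicate numbers were those of the sample titles, and the deposited files number the arrays differently, so the numbering itself is uncertain. Correlations of deviations were 0.0025 to 0.067 between samples of one number and -0.081 to 0.063 between the others, so no pairing was taken from the numbers. The replicate block moved the genes called from 824 lower and 644 higher to 765 and 518. The array median as the scale moved the median of all genes to -0.11, with 1175 lower and 382 higher (75.5% lower, against 56.1%), and normexp gave 556 and 286 with quantile normalization and 584 and 278 with the 75th percentile (66.0% and 67.7% lower). The number of arrays limits the precision, and exact tests of 3 against 3 cannot go below 0.1.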
